A study of Homo sapiens with 3 samples.

Results

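The regions described here were H3K27ac peaks that lay near the start of a protein-coding gene but shared no base with an H3K4me3 peak in H2087 cells, a long-established line derived from a human lung adenocarcinoma. They were selected on both peak lists, as distinct H3K27ac intervals that did not overlap any H3K4me3 interval and whose nearest edge lay within 3 kb of the outer 5′ end of a protein-coding gene. Of the 24096 H3K27ac peaks, 3587 (14.9%, 95% interval 14.4 to 15.3) met this rule. A further 3762 peaks near a gene start were shared with H3K4me3, and 14722 peaks without H3K4me3 lay over 3 kb from every protein-coding start. The H3K4me3 list contained 18585 peaks.

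ChIP-seq of the untreated cells gave 1 library for H3K27ac, 1 for H3K4me3 and 1 of input chromatin. The lists of peaks in the libraries of both marks were analysed, whereas the input was not analysed here. With 1 library per mark there were no replicates, so no test was made and every interval covers counting error only. The peak lists carry no read counts, so the depth is unknown and a gene start without a peak cannot be told apart from one with too few reads.

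H3K27ac is an acetylation of the histone H3 tail that accompanies active promoters and active enhancers, whereas H3K4me3 is a methylation concentrated on the nucleosomes around promoters that are active or poised. At a typical active promoter the start itself is depleted of nucleosomes and both marks flank it. An H3K27ac peak without H3K4me3 is the pattern usually described for an active enhancer, which is usually found away from gene starts.

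The reference sequence under these peaks ranged from CpG-poor to CpG-dense. To show that range, the 3 CpG-poorest and 3 CpG-richest windows of 200 bp are given among the named peaks with the highest −log10 q, after leaving out windows that touched an untranslated exon and peaks of multi-copy sequence. All are on the plus strand of hg19, and capitals mark each CG dinucleotide, the site of DNA methylation in mammals. The window of SLC39A13, a zinc transporter gene, was chr11:47430941-47431140 in an intron or another noncoding part of a protein-coding gene and held 2 CG. The window upstream of GALNT6, which encodes an enzyme that starts mucin-type O-glycosylation, was chr12:51788889-51789088 and also held 2 CG. The window of CAPN9, a calpain protease gene, was chr1:230883316-230883515 with its centre in a coding exon and held 5 CG. The CpG-rich windows were chr17:78234836-78235035 in RNF213, an E3 ubiquitin ligase gene, with 25 CG, chr2:44396431-44396630 in ENSG00000285542, with 26 CG, and chr2:99954062-99954261 in EIF5B, a translation initiation factor gene, with 28 CG.
SLC39A13: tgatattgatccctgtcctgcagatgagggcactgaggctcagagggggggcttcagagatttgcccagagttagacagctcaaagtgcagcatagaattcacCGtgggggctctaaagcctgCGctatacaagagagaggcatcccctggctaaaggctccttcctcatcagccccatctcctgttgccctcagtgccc
GALNT6: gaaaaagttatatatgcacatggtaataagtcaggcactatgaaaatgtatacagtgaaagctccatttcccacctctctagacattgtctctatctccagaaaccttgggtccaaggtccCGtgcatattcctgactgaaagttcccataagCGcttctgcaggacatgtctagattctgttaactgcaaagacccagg
CAPN9: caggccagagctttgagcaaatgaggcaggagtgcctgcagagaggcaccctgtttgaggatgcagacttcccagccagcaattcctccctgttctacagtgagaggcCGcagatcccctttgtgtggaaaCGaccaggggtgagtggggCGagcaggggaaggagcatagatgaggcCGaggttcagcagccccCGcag
RNF213: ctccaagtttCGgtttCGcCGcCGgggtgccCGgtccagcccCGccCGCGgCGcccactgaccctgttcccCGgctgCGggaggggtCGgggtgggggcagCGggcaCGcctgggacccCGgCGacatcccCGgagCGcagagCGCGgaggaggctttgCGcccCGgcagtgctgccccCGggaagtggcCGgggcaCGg
ENSG00000285542: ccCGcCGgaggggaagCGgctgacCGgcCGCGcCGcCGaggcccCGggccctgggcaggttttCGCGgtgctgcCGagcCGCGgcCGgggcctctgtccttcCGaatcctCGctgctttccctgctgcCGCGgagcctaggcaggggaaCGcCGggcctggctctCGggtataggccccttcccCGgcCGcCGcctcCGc
EIF5B: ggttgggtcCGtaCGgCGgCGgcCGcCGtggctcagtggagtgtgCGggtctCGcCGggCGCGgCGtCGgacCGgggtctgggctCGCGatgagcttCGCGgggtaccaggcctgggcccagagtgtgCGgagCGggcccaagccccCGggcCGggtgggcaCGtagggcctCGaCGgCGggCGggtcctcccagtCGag

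The 3587 peaks were distributed over 3441 of 20163 protein-coding gene starts, 17.1% of all starts. A single peak was found at 2773 of these starts, 2 at 528, 3 at 111, 4 at 24 and 5 at 5. The peaks were found both at starts that carried H3K4me3 elsewhere and at starts without it. The nearest start had an H3K4me3 peak within 3 kb for 2338 peaks (65.2%, 63.6 to 66.7) and none for the other 1249. This share fell to 47.0% of 4594 peaks when H3K4me3 peaks below their list's median −log10 q were left out. It fell to 41.5% of 2125 peaks when H3K4me3 within 1 kb counted as shared. That definition removed 1462 peaks, of which 1456 were at starts with H3K4me3. Both definitions change which peaks and starts count, so the falls follow in part from the definitions. Counted by gene, 2316 of the 8722 starts with H3K4me3 (26.6%) had at least 1 such H3K27ac peak within 3 kb, against 1125 of the 11441 starts without H3K4me3 (9.83%). These 1125 starts made up 5.58% of all protein-coding starts. The 2 shares were not separated from how often a start had H3K27ac of any kind, which was 29.9% over all starts. At a start without H3K4me3 within 3 kb almost every H3K27ac peak meets the rule, whereas at the other starts shared peaks were left out. The contrast of 26.6% with 9.83% is therefore a description only. The number of peaks depended on the definitions. It was 1948 when the edge had to lie within 1 kb, 2125 when an H3K4me3 peak within 1 kb counted as shared, and 6474 when the start of every protein-coding transcript was used.

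**Figure D1:**
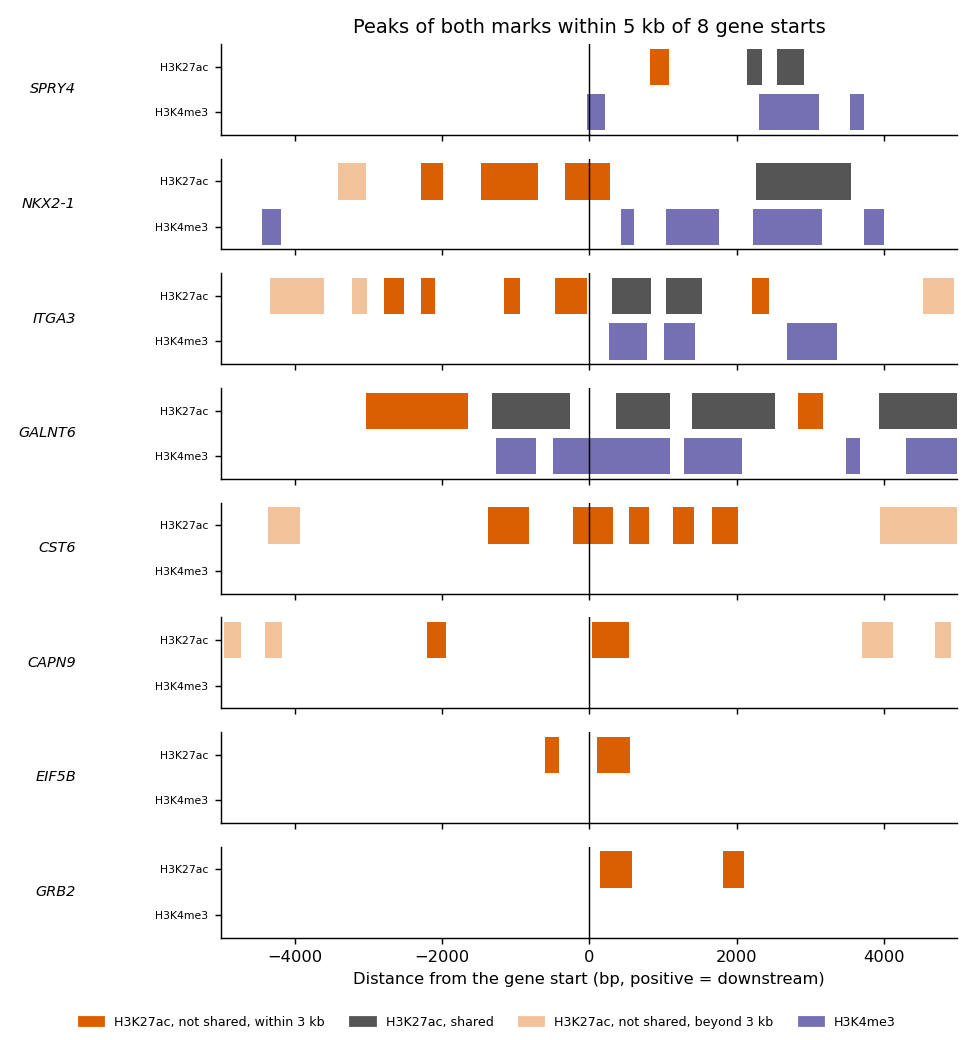
Peaks of H3K27ac (upper row) and H3K4me3 (lower row) within 5 kb of the starts of 8 genes, against distance from the start in bp, positive downstream. Orange marks H3K27ac peaks within 3 kb that share no base with H3K4me3, pale orange those beyond 3 kb, grey the shared H3K27ac peaks and violet H3K4me3. In the upper 4 genes the orange peaks lie beside H3K4me3, and in the lower 4 no H3K4me3 peak lies within 5 kb.

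The peaks resembled those far from gene starts in size and rank more than those shared with H3K4me3. Their median width was 271 bp (interquartile range 221 to 358), against 271 bp in the peaks over 3 kb from a start and 337 bp in the shared peaks. The median −log10 q was 2.45 (1.89 to 3.40), again 2.45 in the peaks far from starts, and 3.05 in the shared peaks. A −log10 q of at least 5 was reached by 206 peaks (5.74%, 5.00 to 6.56), by 6.22% of the peaks far from starts and by 16.1% of the shared peaks. Several summits were listed in 63 peaks (1.76%) and a width of at least 1000 bp was reached by 16, against 260 (6.91%) and 92 of the shared peaks. A wide interval has more chances to touch an H3K4me3 peak, so the rule itself favours narrow ones.

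The highest −log10 q was 10.3, in an intron or another noncoding part of SPRY4, which encodes an inhibitor of receptor tyrosine kinase signalling to MAPK. The peak was 258 bp wide with its centre at 951 bp from the start, where positive positions are downstream. The nearest H3K4me3 peak covered the start from -27 to 211 bp, which left a gap of 610 bp. FHOD1, an actin-nucleating formin gene, followed with 9.72 at 360 bp. NEURL2 had 9.32 at -487 bp, with H3K4me3 from 286 to 906 bp on the other side of the start. The centre of this upstream peak was in a coding exon of another gene. Among the first 12 peaks were also POLD4, a subunit of DNA polymerase delta (8.38), HPCAL1, a calcium-binding protein gene (8.16), GALNT6 (8.12) and PTBP1, a repressor of exon inclusion in splicing (8.12). The POLD4 and GALNT6 peaks, centred upstream at -1297 and -2337 bp, likewise lay inside another protein-coding gene.

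CNOT8, RPS15A and LAMTOR5 were also among the first 12. Their peaks had −log10 q of 8.89, 8.81 and 8.33, and 71.4%, 75% and 100% of their 32-base words occurred more than once in the genome. Values in such multi-copy sequence depend on how reads with several matches were placed. Of all 3587 peaks, 398 (11.1%, 10.1 to 12.2) had over 50% of words repeated, against 3.62% of the shared peaks and 15.9% of the peaks far from starts. Of the first 12, only CAPN9, with 8.16, had no H3K4me3 peak within 3 kb of its start.

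The widest peak measured 1747 bp and lay upstream of SLC22A18, a transporter gene, at -1941 bp with 3 summits and a −log10 q of 5.98. SCARF1, a scavenger receptor gene, had a peak of 1567 bp that covered the start. TRIB1, a pseudokinase gene, had one of 1512 bp with 5 summits at -3627 bp, whose edge lay 2871 bp from the start. GALNT6 had 1387 bp at -2337 bp, and ENSG00000284976 had 1216 bp at 734 bp.

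Several peaks at 1 start formed rows of separate intervals. At ITGA3, which encodes the α3 subunit of a laminin-binding integrin, 5 peaks were found at -2658, -2193, -1055, -244 and 2321 bp. Their −log10 q was 1.89, 1.89, 6.88, 3.55 and 3.04, and the third was multi-copy with 80% of words repeated. H3K4me3 at ITGA3 began 268 bp downstream of the start, and the H3K27ac peaks at 314 to 833 bp and 1036 to 1534 bp were shared with it. H3K27ac peaks thus lay on both sides of the start, whereas the H3K4me3 peaks within 5 kb were all downstream. CLCF1, a cytokine gene, and the overlapping gene ENSG00000256514 had the same 5 peaks, with −log10 q from 1.62 to 5.71, around H3K4me3 between 580 and 2029 bp of the CLCF1 start.

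The other starts with 5 peaks had no H3K4me3. At CST6, which encodes the cysteine protease inhibitor cystatin E/M, peaks were centred at -1097, 48, 676, 1273 and 1847 bp. Their −log10 q was 3.29, 4.51, 1.39, 2.90 and 2.12, so the peak over the start ranked highest. The CpG content differed between these neighbours, with an observed/expected ratio of 1.01 over the start and from 0.0547 to 0.222 in the other 4. The nearest H3K4me3 peak lay 8065 bp from the CST6 start. At SBK3, a kinase gene, the 5 peaks had −log10 q from 1.39 to 2.22, with the start 27880 bp from H3K4me3.

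Peaks at starts with H3K4me3 were placed on both sides of the start. Of the 2338 peaks, 1106 (47.3%, 45.3 to 49.4) were centred upstream and 1232 (52.7%, 50.6 to 54.7) downstream, with a median position of 192 bp. By comparison, 79.4% (78.1 to 80.7) of the shared peaks were centred downstream, with a median of 455 bp. The rule separated these classes by overlap with H3K4me3, which lay mainly downstream. Their difference in position therefore follows in part from the rule and is a description only. The most frequent position was -600 to -400 bp, with 173 peaks (7.40%), almost level with 171 peaks (7.31%) at 200 to 400 bp, where 19.99% of the shared peaks were found. Directly upstream, from -200 bp to the start, the share was 1.58%.

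**Figure D2:**
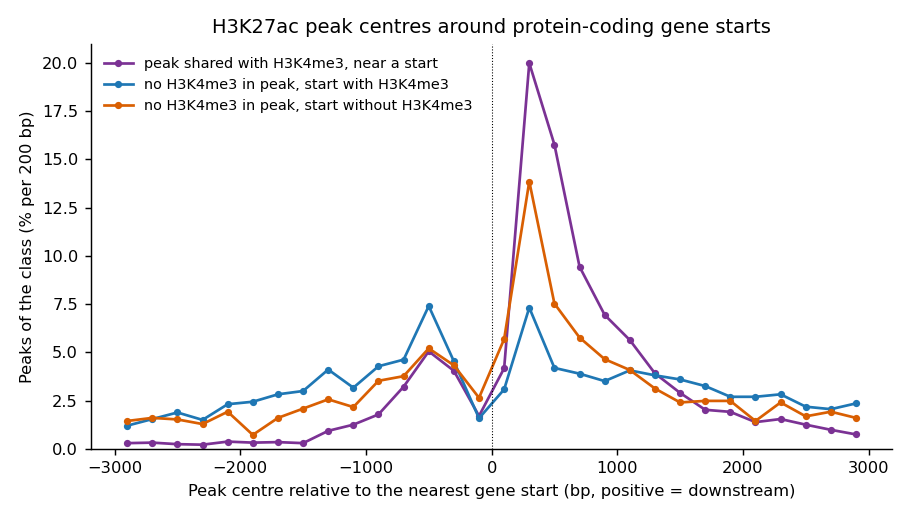
Share of peak centres per 200 bp (y axis, % of each class) against distance from the nearest protein-coding start (x axis, bp, positive downstream) for peaks shared with H3K4me3 (violet) and peaks without it at starts with H3K4me3 (blue) or without (orange). All 3 curves dip just upstream of the start, and at 200 to 400 bp they reach 19.99%, 7.31% and 13.9% in that order. Overlap with H3K4me3 separates the violet from the blue class, so their contrast follows in part from the rule. The shared peaks were left out almost only at starts with H3K4me3, so the contrast of blue with orange also follows in part from the rule.

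The H3K4me3 of these starts lay mainly downstream. For the 1106 upstream peaks, H3K4me3 centres within 3 kb of the start were downstream only in 776 cases (70.2%, 67.4 to 72.8), on both sides in 249 and upstream only in 81. For the 1232 downstream peaks, the H3K4me3 centres were downstream only in 704 (57.1%, 54.3 to 59.9), on both sides in 298 and upstream only in 230. Seen from the H3K27ac peak, the nearest H3K4me3 peak was in the direction of the start for 1868 of 2338 peaks (79.9%, 78.2 to 81.5). By the rule a downstream peak had to avoid any downstream H3K4me3, and the class required H3K4me3 within 3 kb of the start. These shares therefore follow in part from the definitions and are a description only. A different H3K27ac peak that was shared with H3K4me3 lay within 3 kb of the same start for 1196 (51.2%, 49.1 to 53.2). Another H3K27ac peak of any kind lay within 1 kb of 40.1% of these peaks and of 22.3% of those at starts without H3K4me3.

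The gap to the nearest H3K4me3 peak, which the rule used, is given as a description. Its median over all 3587 peaks was 1411 bp (523.5 to 12506.5), and the value mixed distinct distributions. At starts with H3K4me3 the median was 715 bp (347 to 1377), and 484 of 2338 peaks lay less than 300 bp away. At starts without H3K4me3 it was 29539 bp (11015 to 69830), against 16074 bp in the peaks far from starts. The median over all peaks rose to 5181 bp when H3K4me3 peaks below the median −log10 q of their list were left out.

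**Figure D3:**
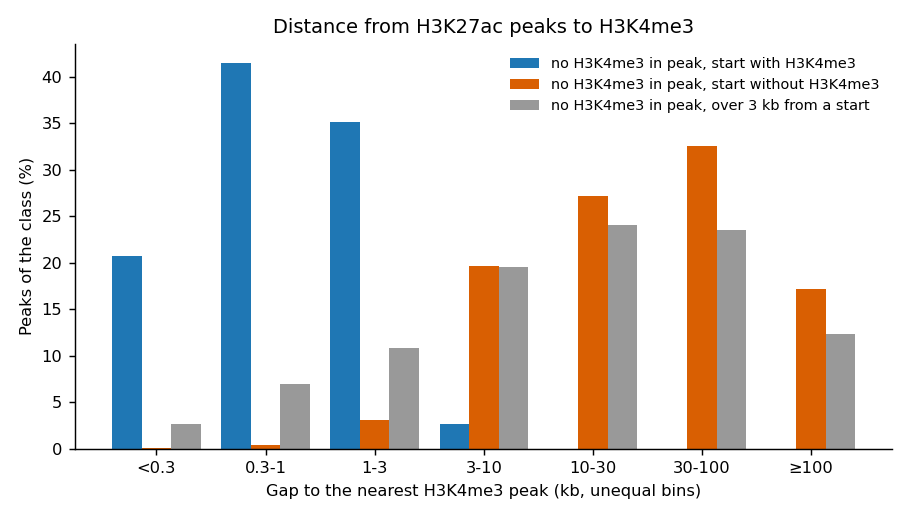
Share of H3K27ac peaks without H3K4me3 (y axis, % of each class) by the gap to the nearest H3K4me3 peak (x axis, kb, unequal bins), for peaks at starts with H3K4me3 (blue), at starts without (orange) and over 3 kb from any start (grey). Blue bars end below 10 kb because the rule for that class sets a limit, and 17.1% of the orange class lay at least 100 kb away.

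The peaks just inside 3 kb were at DHRS12, ATP13A1 and S100A10, with edges 2999, 2998 and 2997 bp from the start and −log10 q of 2.64, 1.51 and 1.83. Just outside were MNT, IMP3 and CITED2, at 3002, 3011 and 3012 bp with 3.45, 2.48 and 4.32. The smallest gaps to H3K4me3 were 0 bp at FKBP2 and ENSG00000261884, where the intervals touched without sharing a base, and 1 bp at PLTP. The smallest overlaps that removed a peak were 2 bases at PUM2, TPM2 and BAIAP2.

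The positions of the 1249 peaks at starts without H3K4me3 lay between those of the shared peaks and those of the peaks at starts with H3K4me3. Of these, 783 (62.7%, 59.9 to 65.4) were centred downstream, 771 (61.7%) had an edge within 1 kb of the start and 173 (13.9%, 11.98 to 15.9) were centred at 200 to 400 bp. The corresponding share at 200 to 400 bp was 7.31% (6.29 to 8.45) at starts with H3K4me3. The rule left out the 3762 shared peaks, and the nearest start of 3761 of them had H3K4me3 within 3 kb. Of the 3762, 752 were centred at 200 to 400 bp. The difference in position between starts with and without H3K4me3 therefore follows in part from the rule and is a description only. The 1125 starts concerned lay a median of 32744 bp (12586 to 77179) from the nearest H3K4me3 peak. At 107 of them (9.51%, 7.86 to 11.4), H3K4me3 was found within 1 kb of another annotated transcript start of the same gene.

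CAPN9 was the first of these peaks with a −log10 q of 8.16 at 285 bp, and a second peak with 2.82 lay from -2205 to -1951 bp. Both peaks also lay within 3 kb of the start of AGT. The peak with 2.82 was nearer to the AGT start, downstream of it, and the peak with 8.16 lay upstream of AGT. SDSL, a serine dehydratase-like gene, had 8.08 at 214 bp, 42113 bp from H3K4me3. GORAB, a golgin gene, had 7.83 at 727 bp with a gap of 457872 bp. BTBD2 had a peak of 912 bp with 7.81 at 876 bp. RPS6KA4, which encodes the histone H3 kinase MSK2, appeared with peaks on both sides of its start, 7.56 at 304 bp and 6.73 at -1723 bp.

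Genes with general cellular functions were among the peaks that followed. TIPRL, a regulator of PP2A-type phosphatases, had 7.20 at 165 bp. EIF5B had 6.88 at 327 bp, with the nearest H3K4me3 182726 bp away, and a weaker peak of 2.16 from -597 to -407 bp. GRB2, the adaptor that links receptor tyrosine kinases to RAS, had 6.88 at 364 bp with a gap of 51476 bp. RNF213 had 6.94 at 284 bp and PIK3R3, a regulatory subunit of phosphoinositide 3-kinase, 6.88 at 612 bp. The CpG observed/expected ratio of the window was 0.982 at EIF5B, 0.879 at ENSG00000285542, 0.863 at PIK3R3, 0.824 at RNF213 and 0.781 at GRB2, against 0.284 at CAPN9, 0.136 at SDSL and 0.130 at SLC39A13. AGT had 6.88 at 2484 bp, TMEM156 had 6.88 at -2228 bp and SLC39A13 had 6.83 at 2357 bp, so these lay farther from the start than those CpG-rich peaks. A low ratio was not confined to distant peaks, because CAPN9 and SDSL were centred at 285 and 214 bp. The ratio at AGT was 0.543.

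The CpG content of the peaks lay between that of shared peaks and that of peaks far from starts. These classes also differed in distance from the start, and CpG content was not adjusted for it. An edge within 1 kb of the start was found for 54.3% of the peaks and 79.5% of the shared peaks. The median CpG observed/expected ratio in 200 bp around the centre was 0.419 (0.224 to 0.669), against 0.654 (0.440 to 0.816) in the shared peaks, 0.244 (0.138 to 0.380) in the peaks far from starts and 0.745 at all protein-coding starts. The median GC content was 58.5%, 65% and 54.5% in the same classes of peaks. A GC content over 50% with a ratio over 0.6, the usual composition of a CpG island, was found in 1046 peaks (29.2%, 27.7 to 30.7), 55.6% of the shared peaks and 5.50% of those far from starts. The share was 28.0% at starts with H3K4me3 and 31.3% at starts without, with overlapping intervals.

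**Figure D4:**
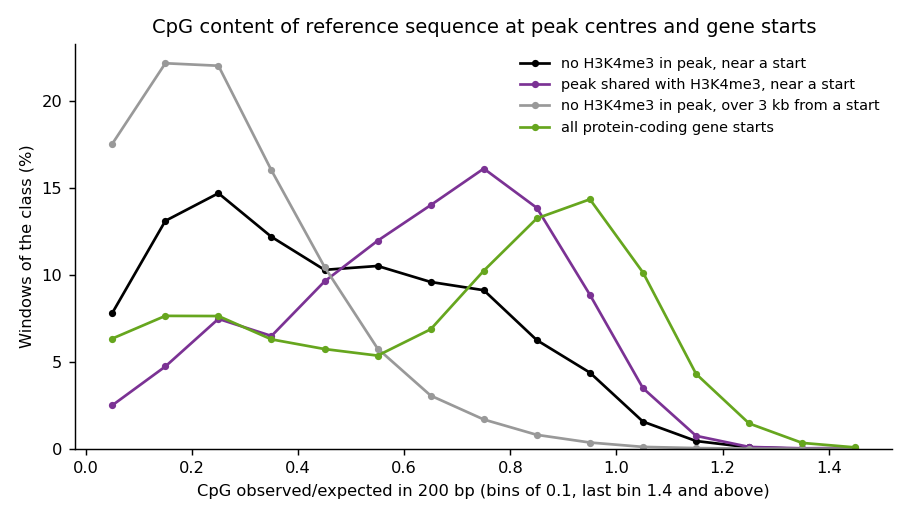
Distribution of the CpG observed/expected ratio in 200 bp of reference sequence (x axis, bins of 0.1; y axis, % of windows) for H3K27ac peaks without H3K4me3 near a start (black), shared peaks (violet), peaks far from starts (light grey) and all protein-coding starts (green). The black curve spans both ranges, with a median of 0.419 between 0.244 and 0.654.

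The CpG content of the starts themselves differed with H3K4me3. Of the starts with a peak and H3K4me3, 80.4% (78.7 to 82.0) had a ratio over 0.6 in the 200 bp around the start, close to 83.8% of the starts with H3K4me3 and no such peak. Of the 1125 starts with a peak and no H3K4me3, 60.4% (57.5 to 63.3) passed this value, and of the 10295 starts with neither mark 42.5% (41.5 to 43.5).

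Short words that form the core of known binding motifs were counted on both strands in the same windows. These counts were likewise not adjusted for distance from the start. GGGCGG, the GC box bound by SP and KLF factors, was found in 800 peaks (22.3%, 20.9 to 23.7), in 36.8% of the shared peaks, in 10.4% of those far from starts and in 46.6% of all starts. CCGGAA, the ETS core, followed the same order with 5.07%, 8.24%, 2.92% and 16.0%. CCAAT, bound by NFY, was found in 14.1%, 11.2%, 15.7% and 25.9%, and TGANTCA, the AP-1 site, in 2.76%, 1.94%, 3.87% and 3.88%. TGACGT, the core of the cyclic AMP response element, was found in 1.90% of the peaks and 6.96% of all starts. GGAATG (TEAD) was found in 8.70% of the peaks and 7.69% of all starts. The E-box CACGTG was found in 3.54% of the peaks and in 5.84% of all starts. The GATA word AGATAA was found in 4.04% and 4.56%, and the KLF word GGGTGTGG in 3.88% and 2.18%, respectively. In the shared peaks the KLF word was found in 3.27%, and in the peaks far from starts in 4.61%. The C/EBP word TTGCNNAA was found in 4.60% of the peaks, 3.91% of the shared peaks, 5.74% of those far from starts and 5.07% of all starts. In the same order, the forkhead word TGTTTAC was present in 0.781%, 0.957%, 1.09% and 1.41%. For the NRF1 word GCATGCGC the shares were 1.115%, 0.452%, 0.815% and 3.01%. No word contained another, although the ETS and TEAD words can share 4 bases at their ends, and a word in a window is a description of its letters only.

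Most peak centres lay inside genes. A centre in an intron or another noncoding part of a protein-coding gene was found for 1728 peaks (48.2%), between genes for 867 (24.2%), in an untranslated exon for 387 (10.8%), in a coding exon for 323 (9.005%) and in another type of gene only for 282 (7.86%). Between genes lay 7.68% of the shared peaks and 25.8% of the peaks far from starts. A transcript start other than the outer start of a protein-coding gene was annotated within 1 kb of 2256 peaks (62.9%, 61.3 to 64.5), 87.2% of the shared peaks and 17.2% of those far from starts. When only transcript starts over 500 bp from every outer start counted, the shares were 32.8% (31.3 to 34.4), 44.5% and 17.2%. At least 2 protein-coding starts lay within 3 kb of 632 peaks (17.6%).

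The share of protein-coding starts with a peak was 24.6% (21.8 to 27.6) on chromosome 16 and 23.4% (21.0 to 25.9) on chromosome 17. It was 4.89% (2.63 to 8.21) on chromosome 18 and 0.806% (0.324 to 1.65) on chromosome X, where 7 of 869 starts had a peak. Copy number and depth were not measured here.

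Gene lists were read against the 17.1% of all protein-coding starts with a peak. Over all 20163 starts, any H3K27ac peak was found within 3 kb of 6028 (29.9%) and H3K4me3 within 3 kb of 8722 (43.3%). The markers of epithelial cells came first, with 16 of 30 starts (53.3%, 34.3 to 71.7). In this list 22 starts had any H3K27ac peak and 26 had H3K4me3 within 3 kb, against 1 and 5 of 15 starts of mesenchymal markers, 0 and 2 of 14 blood markers and 0 and 0 of 6 endothelial markers. None of these 3 lists had a peak without H3K4me3 (0 of 15, which allows up to 21.8%, 0 of 14 and 0 of 6). The neuroendocrine markers had none at 7 starts and the squamous markers 1 of 6, at SOX2. ITGB4, the β4 integrin subunit of hemidesmosomes, had a −log10 q of 5.12 at -336 bp, KRT18, a simple epithelial keratin, 4.91 at -2867 bp, JUP, plakoglobin of desmosomes, 3.55 at -2051 bp and GRHL1, an epithelial transcription factor, 3.40 at -1952 bp. Each of these starts had H3K4me3, and OVOL1 was the single gene of the list with a peak and no H3K4me3 within 3 kb.

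Of 24 lung lineage genes, 4 had a peak (16.7%, 4.74 to 37.4), 5 had any H3K27ac and 9 had H3K4me3. At NKX2-1, the lineage factor of lung and thyroid, peaks were centred on and upstream of the start, the first from -324 to 287 bp with a −log10 q of 2.82 and the others from -1471 to -702 bp with 2.46 and from -2292 to -1982 bp with 2.40. All H3K4me3 peaks within 3 kb of NKX2-1 were downstream, from 428 bp onwards. AQP5, a water channel of alveolar type I cells, had 3.23 at 1732 bp and FOXA2, an endodermal pioneer factor, 2.82 at -433 bp, both without H3K4me3 within 3 kb. FOXA2 had a further peak from 406 to 596 bp, and its first peak was 461720 bp from H3K4me3. ELF3, an epithelial ETS factor, had 1.55 at 105 bp, 34 bp from H3K4me3. No surfactant gene was among them.

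Among signalling lists, immediate early and AP-1 genes had a peak at 13 of 28 starts (46.4%, 27.5 to 66.1), 1 of them without H3K4me3. Any H3K27ac peak was found at 18 of these 28 starts, against 29.9% of all starts. It was found at 14 of 25 MAPK, 12 of 24 TGF-beta, 7 of 24 NF-kB and 8 of 20 YAP and TEAD starts. The shares below were not separated from how often a list had H3K27ac of any kind. The highest values of the immediate early and AP-1 genes were at MAFG (4.99), FOSL2 (4.49), MYC (3.72) and MAFK (3.64). MAPK output and feedback genes had 9 of 25 (36%, 18.0 to 57.5), all with H3K4me3, led by SPRY4 (10.3), the growth factor TGFA (4.97), the phosphatase DUSP1 (3.42) and the receptor EPHA2 (3.05). TGF-beta and SMAD genes had 8 of 24 (33.3%, 15.6 to 55.3), led by the ubiquitin ligase SMURF1 (4.32) and the SMAD corepressor SKI (4.29), which had no H3K4me3 within 3 kb. NF-kB genes had 4 of 24 (16.7%), at BCL3 (3.71), TNFAIP2 (3.55), IL6 (2.91) and REL (2.45). The IL6 peak was centred at -3017 bp and its start had no H3K4me3. YAP and TEAD genes had 3 of 20 (15%), at AMOTL2 (7.59), ARHGEF17 (3.72) and CCN1 (2.82), all with H3K4me3.

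Cytosolic ribosomal protein genes had a peak at 33 of 84 starts (39.3%, 28.8 to 50.5), of which 4 had no H3K4me3. Any H3K27ac was found at 50 and H3K4me3 at 62 of the 84. RPS15A had 8.81 and was multi-copy, RPL23 had 5.98 at 240 bp and lay 2 bp from H3K4me3, RPL19 had 5.12 with 3 peaks within 3 kb, and RPL27 had 4.29 without H3K4me3. Many of these genes have processed copies elsewhere in the genome, so reads from their exons are harder to place. The RPS15A peak, however, was centred at -675 bp, upstream of the gene and outside its exons. An effect of such copies on the peaks of this list was not tested. Proteasome subunit genes had 9 of 39 (23.1%), led by PSMB6 with 7.82 at -316 bp, and complex I subunit genes of the respiratory chain 8 of 37 (21.6%), led by NDUFB1 with 5.12 at 333 bp. The intervals of both lists contained 17.1%.

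**Figure D5:**
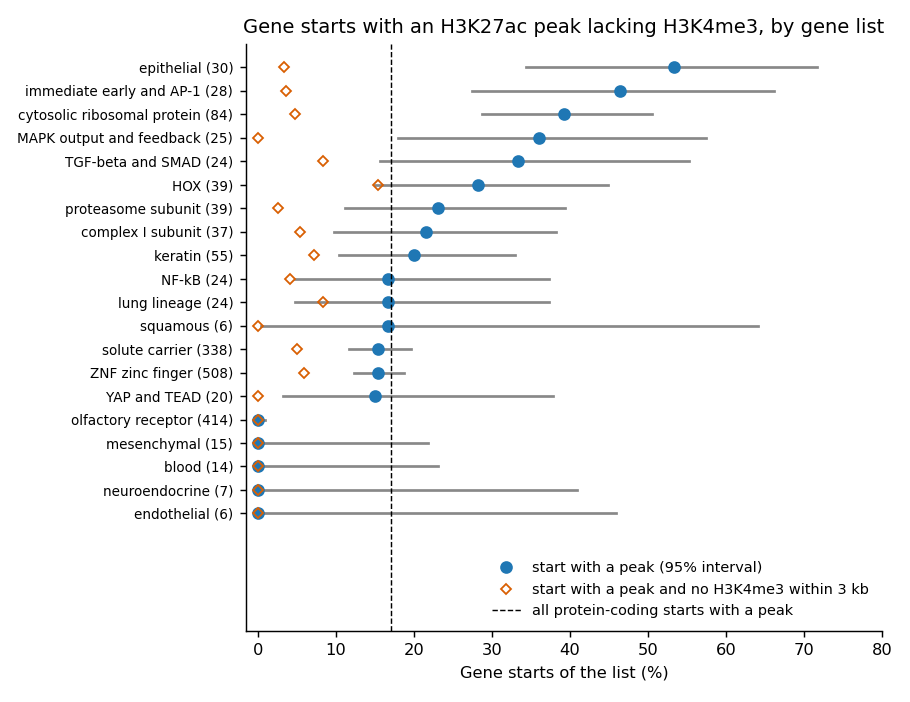
Share of gene starts in each of 20 lists with an H3K27ac peak lacking H3K4me3 within 3 kb (blue points, x axis in %, with grey lines for 95% Clopper-Pearson intervals) and share with such a peak and no H3K4me3 within 3 kb of the start (open orange diamonds), with the number of starts in brackets. The dashed line is the 17.1% of all protein-coding starts. Epithelial markers reach 53.3% and olfactory receptors 0%.

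The HOX genes, which specify position along the body axis, had a peak at 11 of 39 starts (28.2%, 15.001 to 44.9), and 6 of these 11 had no H3K4me3 within 3 kb (15.4% of the list against 5.58% of all starts). Any H3K27ac was found at 15 of the 39 HOX starts and H3K4me3 at 15, against 29.9% and 43.3% of all starts. HOXA6 had 4.58 at 1889 bp and HOXA9 3.55 in a peak of 815 bp at 143 bp with 3 peaks in all, both without H3K4me3, as was HOXB5 with 3.51. HOXC9 had 3.05 and lay 106 bp from H3K4me3. Keratin genes had 11 of 55 (20%, 10.4 to 33.0), 4 without H3K4me3. After KRT18, the highest were KRT4 (4.53), KRT15 (4.32) and KRT75 (3.55). ZNF genes had 78 of 508 (15.4%, 12.3 to 18.8) and solute carrier genes 52 of 338 (15.4%, 11.7 to 19.7), both with intervals that contained the share of all starts. The 414 olfactory receptor genes, which are expressed mainly in olfactory neurons, had none (0%, up to 0.887%), and 3 of their starts had H3K4me3 within 3 kb.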

How the data were processed

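ChIP-seq of H2087 cells was analysed from the peak lists of H3K27ac and H3K4me3, 1 library each. According to the submitters' processing notes, the tools were bcl2fastq 1.8.4, Bowtie 1.1.1, SAMtools 1.2, Picard 1.118, MACS2 2.1.0 and ChIPseeker 1.6.6, on hg19. The peak threshold, the handling of duplicate reads and the use of the input in peak calling are not given in the sources used here. The deposited lists have no header. Their last column was read as the −log10 q from the authors' peak caller, because the smallest values, 1.303 and 1.306, lie just above the 1.301 of a q of 0.05. It ranks peaks within a list only.

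Entries repeated per summit (25275 for H3K27ac) were joined to distinct intervals with the highest value. Gene starts were the outer 5′ ends of protein-coding genes in GENCODE 44 mapped to hg19, and reference sequence came from GRCh37, the same build. A window was 200 bp around the peak centre. A peak was called multi-copy if its 32-base words, sampled at steps of 20 bases, recurred in the assembly in over 50% of cases. Shares carry exact Clopper-Pearson 95% intervals. Nearby peaks are not independent, so these are too narrow. The members, lists and motif words were chosen with earlier results of these data known. Genes were named for the 12 top-ranked peaks by −log10 q, the 5 widest, the 5 starts with the most peaks, the 15 highest at starts without H3K4me3, the 3 nearest on each side of a limit, and up to 4 genes per list with a peak, by −log10 q. A peak that met this rule is not reported here. OVOL1 and the further peaks at named starts were added after their values were seen. The procedure was tested on simulated intervals. Python 3.11.15, numpy 2.4.6, scipy 1.17.1, numba 0.67.0 and matplotlib 3.10.9 were used.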

Additional observations from a re-analysis of the deposited data

How the results depend on the processing

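No paired analysis was possible because the data held 1 library per mark. A result was taken as unchanged when a count stayed within 1.5 times its value, or a share or median stayed within its 95% interval. With the H3K27ac list restricted to values at or above its median −log10 q, 1618 peaks at 1693 starts remained, with a median gap of 1325 bp, width of 295 bp and CpG ratio of 0.441, and 64.8% lay near another transcript start. With the H3K4me3 list restricted likewise, 47.0% of peaks were at starts with H3K4me3, 60.7% were downstream, the gap was 5181 bp and 67.7% lay near another transcript start. When H3K4me3 within 1 kb counted as shared, 2125 peaks at 2065 starts remained, with 41.5%, 52.3%, 6654 bp and 53.9% for the same measures in that order. When 50% of the interval had to be covered, these were 71.0%, 59.5%, 974 bp and 66.3%. With starts of every protein-coding transcript there were 6474 peaks at 24203 transcript starts, with 51.4%, 52.6%, 2747.5 bp and 12.6%. With starts of all genes there were 5638 peaks at 6268 starts, with 51.3% at marked starts, a gap of 2713.5 bp and 45.3% near another transcript start. An edge within 1 kb gave 1948 peaks at 2026 starts, with 60.4%, 1130 bp and 84.5%, and an edge within 5 kb a gap of 1860 bp and 54.9%. Some alternatives were chosen after seeing the data. Without multi-copy peaks 58.2% were downstream, 65.4% lay near another transcript start and the CpG ratio was 0.403, and with transcript starts over 500 bp from outer starts the share was 32.8%. Counting an entry per summit left every result tried within its limits. A window of 500 bp left the CpG ratio within its interval. It raised the share of peaks with each of the 12 motif words, which a longer window around the same centre cannot lower. In every alternative over 50% of centres were downstream. Depth, copy number and the mapping of repeated sequence were not measured here and limit all counts.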
